A study of Mus musculus with 4 samples.

Results

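The T-cell receptor gamma and delta genes and their companions described here are 9 of the 53647 genes counted in each library. They are the constant-region genes Trdc, Trgc1, Trgc2 and Trgc4, the variable-region genes Trgv2 and Trdv4, and 3 genes that are no receptor genes, Sox13, Cd163l1 and Blk. They were chosen by name, with their molecule counts in these libraries known. The values that chose them were how their UMIs (unique molecular identifiers, each standing for 1 captured RNA molecule) were divided by the CD8 UMIs of the T cell that held them and by antibody group. For these genes, those 2 contrasts are therefore given as values, without a test. All 9 genes were found, 8 by symbol and Cd163l1 by its Ensembl identifier, under which the files list it as Scart1.

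Spinal cord cells were profiled by 10x 3′ single-cell RNA sequencing in aged mice of the inbred C57BL/6J strain. The tissue was the lesion segment, taken 28 days after the spinal cord had been injured. Mice had received IgG (the control antibody, 2 libraries, IgG 1 and IgG 2) or an antibody against CD8 (2 libraries, Anti-CD8 1 and Anti-CD8 2). All 4 libraries came from aged, injured animals. The sources used here give neither the ages in months nor the antibody schedule nor the number of mice per library, so the spread behind every p-value is that between libraries, which may be technical. Each library held 152457679 to 170539226 UMIs in 6586 to 8482 cell barcodes, and pairs of libraries shared 7 to 23 barcodes. After filtering and clustering, 1710 T cells remained in the 3 clusters that carried the T-cell markers: 329 in IgG 1, 705 in IgG 2, 418 in Anti-CD8 1 and 258 in Anti-CD8 2. Of these, 272, 490, 151 and 89 held at least 1 Cd8a or Cd8b1 UMI, and 57, 215, 267 and 169 held none. The median depth was 7268.5, 7353.5, 6980 and 7067 UMIs per T cell with a CD8 UMI, and 6442, 6079, 5367 and 6331 per T cell without one. One of the 3 clusters was shallow, with a median of 1944 to 3301 UMIs per cell by library.

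T cells carry 1 of 2 kinds of antigen receptor, an alpha-beta or a gamma-delta heterodimer, each assembled from variable, joining and constant segments. The mouse gamma locus is built from several cassettes, each with its own variable, joining and constant gene, whereas the delta genes lie within the alpha locus and share 1 constant gene, Trdc. Gamma segments rearrange early in thymic development, and cells that go on to the alpha-beta lineage can keep rearranged gamma genes. Gamma-delta T cells mostly lack CD4 and CD8 and sit in barrier tissues and the meninges, where some make interleukin 17. Sox13, a transcription factor, and Blk, a Src-family kinase best known from B cells, both take part in the development of interleukin-17-producing gamma-delta T cells, and Cd163l1 encodes SCART1, a scavenger receptor found on such cells.

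The gamma constant genes are close copies, and this bears on how firmly a read can be given to 1 of them. Because Trgc1 and Trgc2 differ sharply in which cells held their UMIs, the start of their first constant exon is shown beside that of Trgc4. The first 120 of 330 bases were read from the GENCODE M21 transcripts, which belong to the GRCm38 assembly, and run 5′ to 3′. Capitals mark the bases that differ from Trgc1.
Trgc1: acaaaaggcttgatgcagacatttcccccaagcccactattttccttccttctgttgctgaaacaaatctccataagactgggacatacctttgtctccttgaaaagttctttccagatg
Trgc2: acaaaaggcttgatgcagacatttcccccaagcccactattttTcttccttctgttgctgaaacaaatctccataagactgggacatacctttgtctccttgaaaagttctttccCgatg
Trgc4: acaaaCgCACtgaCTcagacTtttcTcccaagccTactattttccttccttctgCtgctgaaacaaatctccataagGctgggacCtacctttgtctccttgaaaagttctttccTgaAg
Over the whole exon Trgc2 differed from Trgc1 at 9 bases (97.3% identity) and Trgc4 at 59 (82.1%). Of the 50-base windows of the Trgc1 transcript, 17.9% also occurred in Trgc2, 17.6% in Trgc3 and 0% in Trgc4. Of its 90-base windows, 1.80% occurred in Trgc2, so the overlap depends on the length read. Among 50-base windows within the last 400 bases, where 3′ libraries place most reads, 23.4% of those of Trgc1 occurred in Trgc2. The sources used here do not say how reads shared by both genes were assigned, so single UMIs of Trgc1 and Trgc2 carry that uncertainty, and those of Trgc4 do not. In the same annotation the gamma cassettes lie on chromosome 13. Trgv6 and Trgv4 share a strand with Trgc1, which they precede. Trgv2 neighbours Trgj2 and Trgc2 on the opposite strand, and Trgv1 neighbours Trgj4 and Trgc4. Trdv4, Trdc and Blk lie on chromosome 14, Sox13 on chromosome 1 and Cd163l1 on chromosome 7. The files were made on GRCm39, so no coordinates are taken from this annotation.

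The 9 genes fell into 3 patterns by the CD8 UMIs of the cells that held them. Trdc, Trdv4, Cd163l1, Sox13, Blk and Trgc1 lay almost wholly in T cells that had no CD8 UMI, and in every library their level was lower in T cells with one. Trgc2 and Trgv2, pooled over the libraries, lay mostly in T cells with a CD8 UMI, and Trgc4 was divided between both. The share of a gene's T-cell UMIs that came from cells with a CD8 UMI was 1.83% for Trdc, 2.32% for Trgc1, 1.19% for Blk, 0.0955% for Cd163l1 and 0% for Trdv4 and Sox13. It was 86.5% for Trgc2, 81.3% for Trgv2 and 66.6% for Trgc4, while 58.6% of T cells held a CD8 UMI. In IgG 1, IgG 2, Anti-CD8 1 and Anti-CD8 2 it was 97.4%, 92.3%, 59.4% and 38.3% for Trgc2. For Trgv2 it was 93.9%, 91.2%, 45.3% and 30.0%, and for Trgc4 84.8%, 75.5%, 19.7% and 29.3%. The pooled shares of these 3 genes thus rested mostly on the IgG libraries. In Anti-CD8 2 neither Trgc2 nor Trgv2 had a higher level in T cells with a CD8 UMI.

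Trdc, the single delta constant gene, gave 1752 UMIs in 125 T cells. Among T cells without a CD8 UMI, 6 of 57 (10.5%) held it in IgG 1, 39 of 215 (18.1%) in IgG 2, 55 of 267 (20.6%) in Anti-CD8 1 and 18 of 169 (10.7%) in Anti-CD8 2. Their exact 95% binomial intervals, which cover counting error only, ran from 3.96% to 21.5%, 13.2% to 24.0%, 15.9% to 26.0% and 6.44% to 16.3%. Among T cells with a CD8 UMI the shares were 0%, 0.816%, 1.99% and 0%, where, at a limit of 3 counts, the 0 of 272 cells in IgG 1 allows up to 1.10% and the 0 of 89 cells in Anti-CD8 2 up to 3.37%. Microglia, which should lack the gene and were deeper (medians of 15567 to 19563.5 UMIs), held it in 0.0345%, 0.531%, 0.188% and 0.0833% of cells. The shares in T cells with a CD8 UMI were thus within a few cells of that background, and those without were far above it in all 4 libraries. The few cells with both were not all at 1 Trdc UMI. There were 15 UMIs in 4 cells of IgG 2 and 17 in 3 cells of Anti-CD8 1, against 43 UMIs in 23 microglia.

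A Trdc-positive T cell held a median of 12 Trdc UMIs and at most 55, and no other of the 9 genes had as high a median. The medians were 9 for Cd163l1, 5 for Trdv4, 3 for Blk, 2 for Trgc1, Trgc2 and Trgv2, and 1 for Trgc4 and Sox13. The summed level of Trdc in T cells without a CD8 UMI was 229, 530, 571 and 157 CPM (UMIs per 1000000 UMIs of the sum) in IgG 1, IgG 2, Anti-CD8 1 and Anti-CD8 2. The highest and the lowest of the 4 were both Anti-CD8 libraries, so the groups overlapped, with means of 379 ± 213 CPM (SD, n = 2) under IgG and 364 ± 293 CPM (SD, n = 2) under Anti-CD8. Fewer cells of a kind and less RNA per cell cannot be told apart in such a sum.

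Trdv4, which encodes a delta variable segment, and Trgc1 showed the same division. Trdv4 gave 591 UMIs in 104 T cells, and its shares without a CD8 UMI were 8.77%, 16.3%, 19.1% and 7.69%. Not one of the 1002 T cells with a CD8 UMI held it, and the largest library, with 490 such cells, limits its share to 0.612% by the same limit of 3 counts. Trgc1, the constant gene of the cassette with Trgv4 to Trgv7, gave 646 UMIs in 204 T cells. Its shares without a CD8 UMI were 26.3%, 23.7%, 31.5% and 27.8%, the highest of the 9 genes in every library but IgG 1, where Trgc4 equalled it. With a CD8 UMI its shares were 0.368%, 0.612%, 1.99% and 0%. The Trgc1 level without a CD8 UMI was 97.7, 176, 183 and 109 CPM, and that of Trdv4 was 106, 148, 230 and 41.8 CPM. Neither gene separated the antibody groups there, with 1 Anti-CD8 library above and 1 below IgG 2 for both.

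The 3 genes outside the receptor loci followed Trdc. Cd163l1 was found in 8.77%, 18.6%, 18.0% and 9.47% of T cells without a CD8 UMI, and in 1 T cell with one. Blk was found in 14.0%, 16.7%, 17.6% and 9.47% without and in 1 cell each of IgG 2, Anti-CD8 1 and Anti-CD8 2 with a CD8 UMI. Sox13 was sparse, with 46 UMIs in 36 T cells, 3.51%, 6.51%, 5.62% and 2.96% of those without a CD8 UMI and none of those with one. Microglia held Cd163l1 in 0.188% to 0.333% and Blk in 0.0691% to 0.204% of cells by library.

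**Figure D1:**
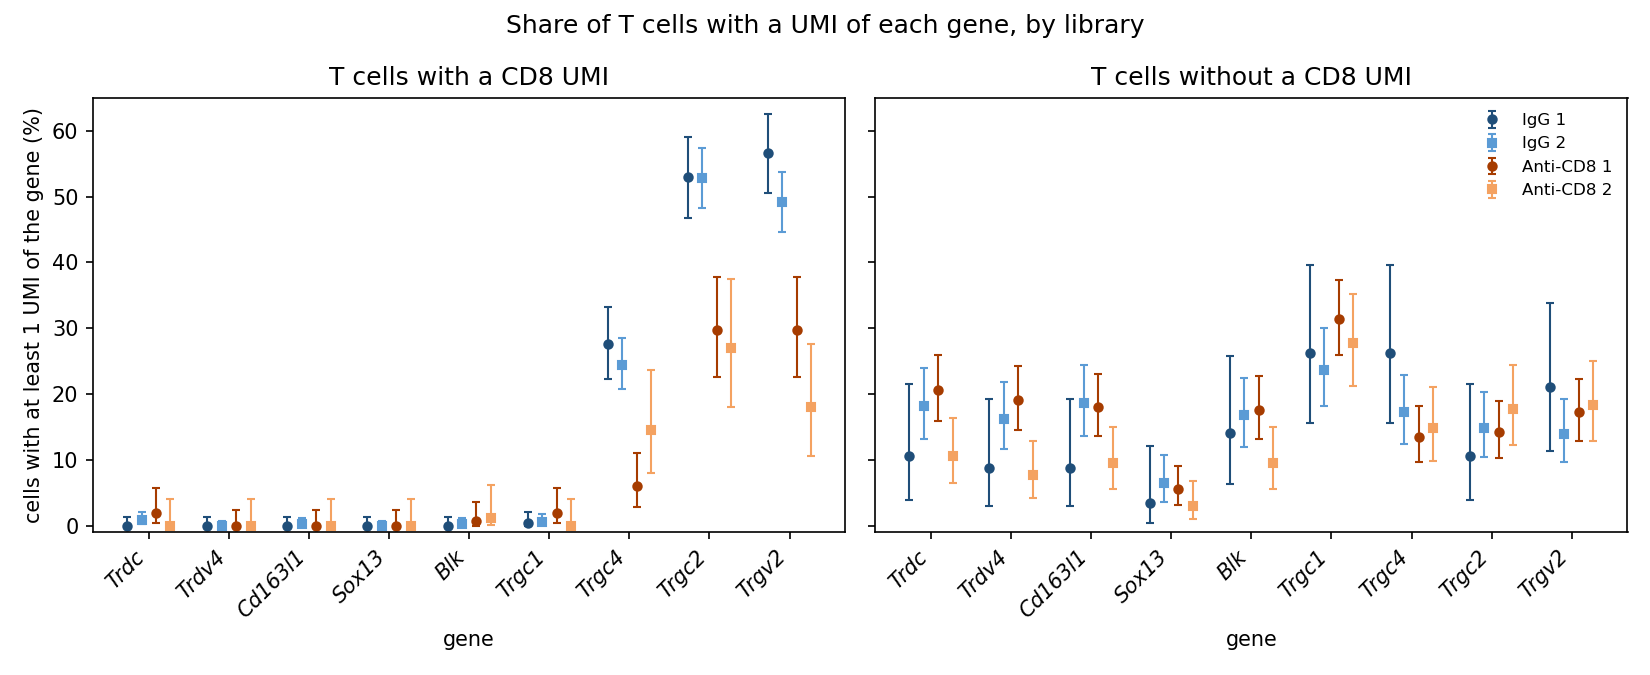
Share of T cells in which each gene was found (vertical axis, %), for T cells with (left) and without (right) a CD8 UMI. Points are the 4 libraries with exact 95% binomial intervals; on the left Trgc2 stands at 52.9% in both IgG libraries against 29.8% and 27.0% in the Anti-CD8 libraries, and on the right Trdc lies between 10.5% and 20.6% with the groups overlapping.

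Among T cells with a CD8 UMI, the gamma genes Trgc2, Trgv2 and Trgc4 were less frequent in both Anti-CD8 libraries than in either IgG library. Trgc2 was held by 144 of 272 cells (52.9%) in IgG 1, 259 of 490 (52.9%) in IgG 2, 45 of 151 (29.8%) in Anti-CD8 1 and 24 of 89 (27.0%) in Anti-CD8 2. The means were 52.9% ± 0.0594 (SD, n = 2) under IgG and 28.4% ± 2.00 (SD, n = 2) under Anti-CD8. Trgv2, the variable gene next to Trgc2, was held by 56.6%, 49.2%, 29.8% and 18.0%, and Trgc4 by 27.6%, 24.5%, 5.96% and 14.6%. No share of these 3 genes in an Anti-CD8 library reached that of an IgG library. Microglia held Trgc2 in at most 0.0817%, Trgv2 in at most 0.245% and Trgc4 in at most 0.276% of cells in any library.

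The summed levels behaved alike. In T cells with a CD8 UMI Trgc2 stood at 161, 186, 74.2 and 52.8 CPM, Trgv2 at 147, 141, 60.6 and 39.6 CPM, and Trgc4 at 66.4, 51.1, 11.8 and 24.9 CPM. The mean IgG level was 2.73 times the mean Anti-CD8 level for Trgc2, 2.88 times for Trgv2 and 3.20 times for Trgc4. Trac, the alpha constant gene, was found in 88.6%, 89.0%, 89.4% and 83.1% of the same cells. Thinned to 2000 UMIs per cell, which removes differences of depth, Trgc2 was found in 22.96%, 30.1%, 12% and 11.6% of T cells with a CD8 UMI and Trgv2 in 27.0%, 22.7%, 14.0% and 5.81%. The thinned shares kept the groups apart.

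In T cells without a CD8 UMI the 3 genes did not share 1 pattern. Trgc2 was found in 10.5%, 14.9%, 14.2% and 17.8% of T cells without a CD8 UMI, at 25.1, 45.8, 40.7 and 53.8 CPM. Trgv2 was found in 21.1%, 14.0%, 17.2% and 18.3%, at 55.8, 40.3, 58.8 and 58.5 CPM. Trgc4 was found in 26.3%, 17.2%, 13.5% and 14.8%, at 69.8, 48.9, 38.5 and 38.0 CPM. For Trgc2 and for the share of Trgv2 the groups overlapped. For the level of Trgv2 and for Trgc4 they did not overlap, with Trgv2 higher and Trgc4 lower under Anti-CD8. Thinned to 2000 UMIs per cell, with shallower cells left out, Trgv2 stood at 54.5, 59.3, 56.7 and 55.9 CPM. Its groups overlapped there, but these levels rested on only 6, 23, 27 and 17 UMIs. Trgc4 stood at 90.9, 46.4, 35.7 and 42.8 CPM after thinning.

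Among cells with 4 or more CD8 UMIs (245, 407, 115 and 54 cells, with medians of 7320, 7529, 7191 and 8124 UMIs) the gap between the groups was wider. Trgc2 was found there in 58.0%, 57.5%, 27.0% and 25.9%, and Trgv2 in 60.4%, 53.1%, 27.8% and 16.7%. Trac was found in 91.0%, 93.1%, 93.0% and 90.7% of these cells, with no such separation. Trbc2, a beta constant gene, was also lower under Anti-CD8, at 931, 957, 724 and 715 CPM, in 97.6%, 98.5%, 95.7% and 96.3% of them. Cells with 2 to 3 CD8 UMIs were few, 18, 52, 18 and 20, and Trgc2 was found in 11.1%, 36.5%, 38.9% and 35.0% of them. There the IgG 1 share was the lowest of the 4, and the groups did not separate. Of the 9, 31, 18 and 15 cells with 1 CD8 UMI, Trgc2 was found in 0%, 19.4%, 38.9% and 20.0%, so here both Anti-CD8 libraries stood above both IgG libraries. Whether the antibody left a different set of CD8 cells or different RNA in the same kind of cell was not tested.

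**Figure D2:**
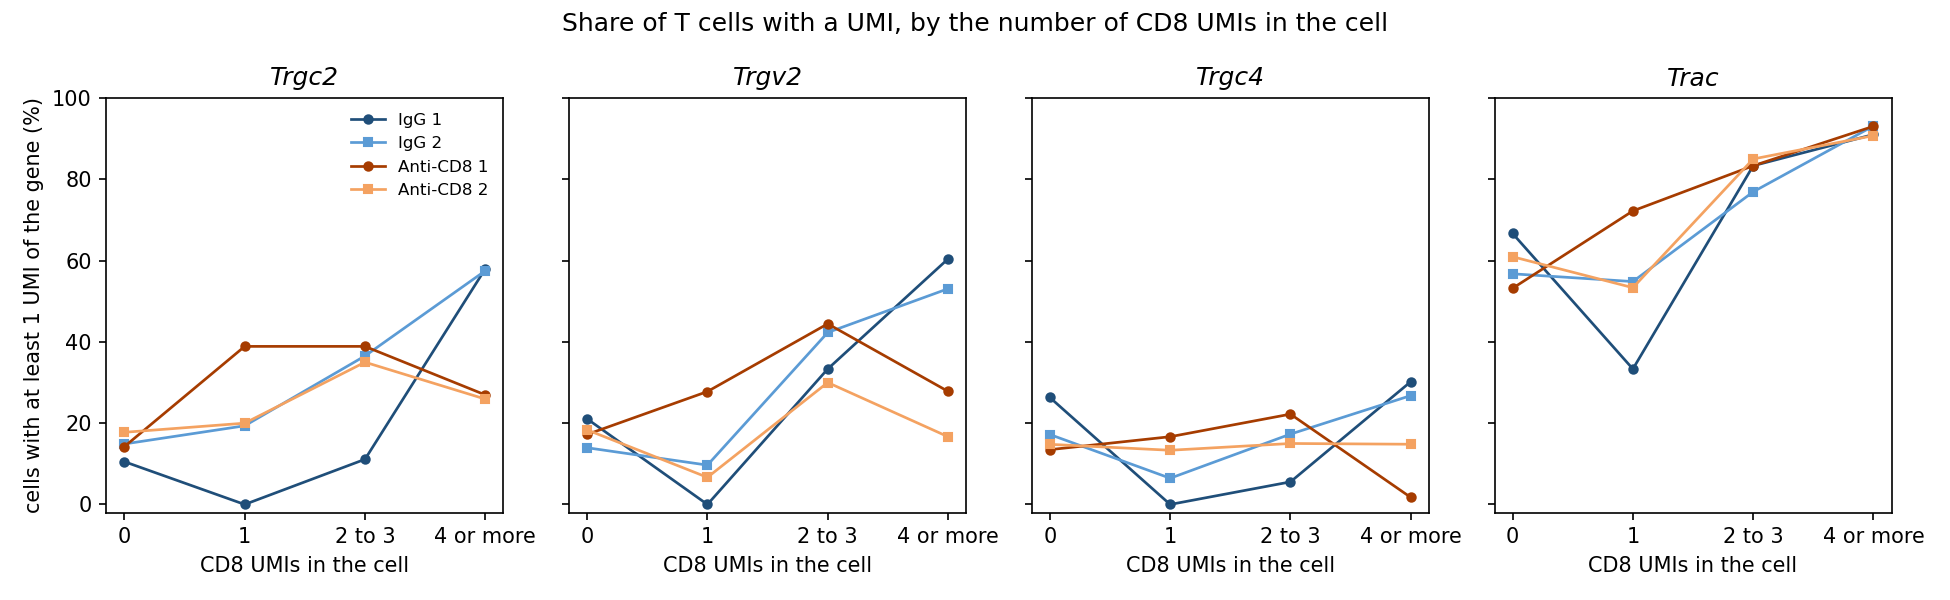
Share of T cells with a UMI of Trgc2, Trgv2, Trgc4 or Trac (vertical axis, %), by the number of CD8 UMIs in the cell (horizontal axis) and library (lines). At 4 or more CD8 UMIs, Trgc2 stands at 58.0% and 57.5% in the IgG libraries and 27.0% and 25.9% in the Anti-CD8 libraries, while Trac lies between 90.7% and 93.1%, and the points at 1 CD8 UMI rest on 9 to 31 cells.

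Over all T cells together, the same counts gave the 2 sets of genes opposite signs. Trdc stood at 33.4, 137, 323 and 96.0 CPM and Trgc1 at 14.7, 46.2, 104 and 66.5 CPM, while Trgc2 stood at 141, 151, 55.6 and 53.4 CPM and Trgv2 at 134, 116, 59.6 and 51.2 CPM. In the fit of Anti-CD8 against IgG over all T-cell genes (edgeR, quasi-likelihood, p-values adjusted by Benjamini-Hochberg), 0.155% of 10290 genes were lower, 0.641% higher and 0.797% in either direction at an adjusted p of 0.05. The log2 differences of Trgc2, Trgv2 and Trgc4 were -1.45, -1.18 and -1.002, and those of Trgc1, Trdc, Trdv4, Cd163l1 and Blk were 1.37, 1.23, 1.47, 1.36 and 0.77. This contrast chose the 9 genes, so no test of them is drawn from it. Over all genes, the 82 past the threshold became 330, 497 and 167 without IgG 1, IgG 2 or Anti-CD8 1. The share of T cells with a CD8 UMI moved with it, from 82.7% and 69.5% under IgG to 36.1% and 34.5% under Anti-CD8, and its part in these values was not tested.

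By cell class, 7 of the 9 genes were at their highest mean level in T cells and next highest in NK cells, the innate lymphocytes closest to them, and Blk and Sox13 were the others. Trdc stood at 29.0, 43.0, 30.3 and 48.6 CPM in NK cells (16, 45, 72 and 122 cells), where 12.5% to 23.8% of cells held it. In NK cells of IgG 1, Trdc was close to its 33.4 CPM in T cells, and in the other 3 libraries it was lower than in T cells. Trgc4 in NK cells, at 50.8, 23.9, 26.8 and 45.2 CPM, overlapped its level in T cells, 66.9, 50.5, 26.6 and 33.0 CPM. Trdv4 also overlapped, with 29.0, 11.96, 12.5 and 19.6 CPM against 15.5, 37.6, 128 and 25.6 CPM. Trgc1, Trgc2 and Trgv2 were lower in NK than in T cells in every library, with NK levels of 2.39 to 7.68, 9.38 to 26.3 and 7.14 to 21.8 CPM. Cd163l1 in NK cells rested on 1 cell each in IgG 2 and Anti-CD8 2, and Blk and Sox13 had no UMI there.

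Sox13 stood apart from the other 8 genes. Only 1.48% of its UMIs in all classes lay in T cells, against 76.2% to 95.6% for the others. Endothelial cells held it at 79.6, 66.9, 55.2 and 59.0 CPM and pericytes and smooth muscle cells at 60.3, 60.9, 40.9 and 65.7 CPM, and the ranges of these 2 vessel classes overlapped. In T cells it stood at 1.63, 3.74, 7.25 and 2.84 CPM, below neurons (9.65 to 20.5 CPM). The highest of these overlapped ependymal cells (7.06 to 11.6 CPM). Endothelial cells held 1975 Sox13 UMIs and T cells 46.

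**Figure D3:**
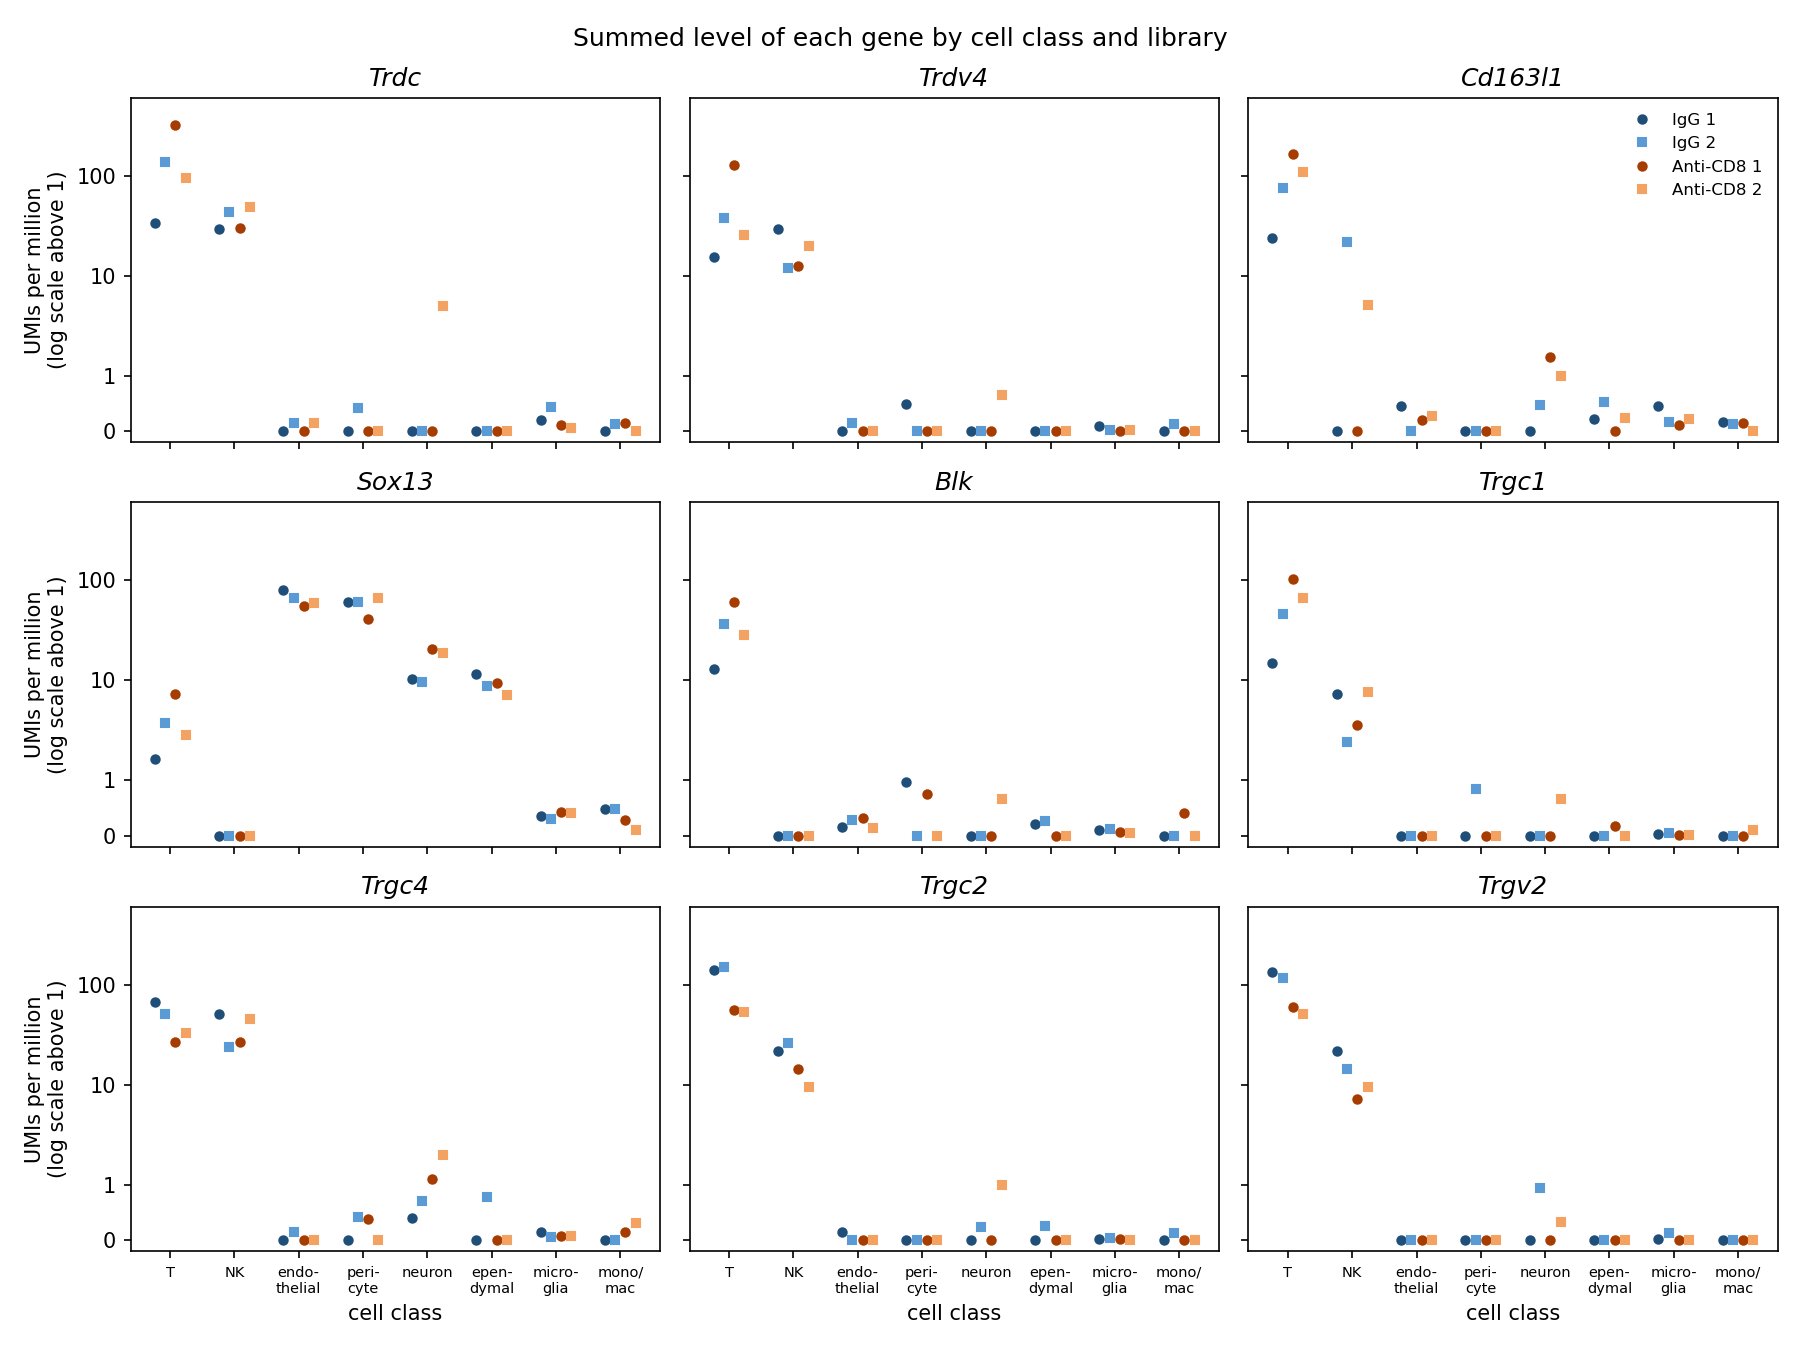
Summed level of each gene (vertical axis, CPM, logarithmic above 1) in 8 cell classes, with 1 point per library. The receptor genes lie highest in T cells and NK cells, for example Trdc at 33.4 to 323 CPM and 29.0 to 48.6 CPM, and Sox13 lies highest in endothelial cells at 55.2 to 79.6 CPM.

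Which genes shared a cell was counted over the 1710 T cells, without a test, since cells of 1 library are not replicates. Of the 125 Trdc-positive cells, 109 held Trgc1, 105 Cd163l1, 102 Trdv4, 86 Blk and 31 Sox13. The share with Trdv4 was 83.3%, 81.4%, 84.5% and 72.2% by library, and that with Cd163l1 was 83.3%, 86.0%, 82.8% and 83.3%. Among the 1585 T cells without Trdc, 0.126% held Trdv4 and 0.315% held Cd163l1. Only 7 Trdc-positive cells held a CD8 UMI and 1 held Cd4, which marks helper T cells. Trgv6, a variable gene of the Trgc1 cassette that is known to pair with Trdv4, was found in 59 T cells. Of these, 57 held Trgc1, 57 held Trdc and 56 held Trdv4, and 8 held Trgc2.

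The gamma genes of the CD8 side formed a second group. Of the 578 Trgc2-positive T cells, 417 (72.1%) held Trgv2, against 14.0% of T cells without Trgc2, and by library the share was 78.7%, 75.3%, 59.0% and 57.4%. Trgc4 was found in 214 of the 578 (37.0%), against 10.2% of the rest. Of the 79 cells with Trgv1, which neighbours Trgc4, 50 held Trgc4 (63.3%, against 17.2% of T cells without Trgv1), and 50 held Trgc2. So Trgv2 and Trgv6 each shared cells mostly with the constant gene of their own cassette. Trgv1 shared as many cells with Trgc2 as with Trgc4, but Trgc2 was the commoner gene, in 578 T cells against 330. The equal counts were thus a larger share of the Trgc4-positive cells.

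Most Trgc2-positive cells also held alpha-chain RNA and no delta RNA. Of the 578 cells, 472 held a CD8 UMI, 487 held Trac, 25 held Cd4 and 34 held Trdc. Trac was found in 27.2% of Trdc-positive T cells and in 79.3% of those without Trdc. Trac was found in 0.219% to 0.776% of microglia and in 12.5% to 35.6% of NK cells by library. The 2 beta constant genes told the cells apart less well, since 90.2% to 93.8% of NK cells held at least 1 UMI of Trac, Trbc1 or Trbc2. The name gamma and delta genes thus describes the loci, and most cells with Trgc2, Trgv2 or Trgc4 RNA were not cells with Trdc RNA. Only 7.31% of all T cells held Trdc, so this is no trait of these genes. In the Trdc split below, Trgc4 was higher in Trdc-positive cells, and Trgc2 and Trgv2 did not pass.

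Splitting T cells by Trdc itself gave a comparison that used neither CD8 nor the antibody. T cells with and without a Trdc UMI were summed in IgG 2, Anti-CD8 1 and Anti-CD8 2 (43, 58 and 18 Trdc-positive cells, median depths of 6354, 5438.5 and 6645.5 UMIs against 7042.5, 6045.5 and 6636.5). IgG 1, with 6 such cells, was left out. In the fit paired by library, 777 of 8016 genes (9.69%) passed an adjusted p of 0.05 in edgeR's test, 437 higher (5.45%) and 340 lower (4.24%) in Trdc-positive cells. The count fell to 367 without IgG 2, 425 without Anti-CD8 1 and 467 without Anti-CD8 2. Of the 8 other members, 6 rose, where 5.45% of all genes rose, and 2 did not pass. Trdv4, Cd163l1 and Sox13 stood at no more than 2.62 CPM in the rest, so they passed the count filter only through the Trdc-positive sums. Only a rise was open to them, and their calls are a description. The Trdc-positive sums also carried Trgc1 and Blk past the filter, which were low in the rest of IgG 2 (6.55 and 4.59 CPM). Their calls, and the count of 6 set against 5.45%, are therefore a description too.

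Trgc1, in edgeR-scaled CPM, stood at 710, 634 and 561 in Trdc-positive cells against 6.55, 25.7 and 30.2 in the rest, a log2 fold change of 5.17 (SE 0.38). Every positive sum lay above every other sum. Cd163l1 (1298, 1274 and 1514 against 2.62, 0 and 0.642 CPM) gave 9.77 (SE 0.38). Blk (571, 374 and 328 against 4.59, 15.03 and 5.78 CPM) gave 5.78 (SE 0.36), and Sox13 (58.8, 46.4 and 32.0 against 0.437, 1.45 and 0.642 CPM) gave 5.84 (SE 0.61). Trdv4 stood at 661, 971 and 360 CPM against 0, 1.45 and 0 CPM. Only 3 Trdv4 UMIs lay outside Trdc-positive cells, so its ratio of pooled levels, 2142, has a counting interval from 729 to 10419. Trgv6 likewise had 73 UMIs in Trdc-positive cells and 2 outside.

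Trgc4 rose more moderately, at 149, 130 and 72.1 CPM against 46.7, 11.6 and 31.4, with a log2 fold change of 2.14 (SE 0.35, edgeR adjusted p = 0.000948). Trgc2 (62.3, 64.9 and 104 against 163, 56.7 and 52.0 CPM) and Trgv2 (72.7, 83.5 and 112 against 124, 58.7 and 48.8 CPM) did not pass, with log2 differences of -0.24 (SE 0.36) and 0.18 (SE 0.32). In IgG 2 both were lower in Trdc-positive cells and in both Anti-CD8 libraries higher. Trac fell by 2.30 (SE 0.24), from 392, 388 and 330 to 96.9, 86.6 and 32.0 CPM. Trbc2 stood at 519, 594 and 561 against 931, 785 and 713 CPM but did not pass (edgeR adjusted p = 0.063), and Trbc1 did not pass either (0.139). Among the CD3 chains, which carry the signal of both receptor kinds, Cd247 rose by 1.13 and Cd3g by 0.49 on the log2 scale, and Cd3d and Cd3e did not pass.

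Genes of interleukin-17-producing lymphocytes were higher and cytotoxic genes lower in the Trdc-positive cells. Of 16 type 17 genes, 13 were tested and 12 rose, with a median log2 fold change of 2.81 against -0.03 over all genes tested. Il17a, the cytokine itself, stood at 1422, 989 and 425 CPM against 3.49, 20.4 and 1.93. Being low in the rest, Il17a passed the count filter only through the Trdc-positive sums, so its call is a description. The count of 12 and the median include it. Il23r, the receptor subunit that sustains such cells, stood at 478, 408 and 545 against 15.1, 71.3 and 123. Il7r, a survival receptor, rose by 1.68, Cxcr6, a receptor of tissue-resident lymphocytes, by 1.65, and Tmem176a and Tmem176b by 2.26 and 2.17. Zbtb16, the factor of innate-like T cells, did not pass (log2 difference 1.06, edgeR adjusted p = 0.0811). No Il17a UMI was found in the 329 T cells of IgG 1.

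All 11 cytotoxic and type 1 genes tested, of 12, fell, with a median of -2.66. Ccl5, a chemokine, stood at 602, 1778 and 0 CPM in Trdc-positive cells against 5061, 4256 and 2837, and Nkg7, a granule protein, at 142, 390 and 8.01 against 1440, 937 and 912. Fasl, a death ligand, fell by 1.86 and Xcl1, a chemokine, by 2.66. Of 7 NK-type receptors tested, 4 fell (Klre1, Klrd1, Klrc2 and Klrk1) and 3 did not pass. The NK-cell markers, summed over 8 genes, stood at 24.8, 35.2, 27.9 and 0 CPM in Trdc-positive cells against 158, 200, 131 and 217 in the rest of each of the 4 libraries. These 8 include Eomes and Gzma, which are also among the 12 cytotoxic and type 1 genes. Ncr1, a defining NK receptor, was at 0 in every Trdc-positive sum, but also in the rest of IgG 1, IgG 2 and Anti-CD8 2. Klra8 and Klra4 were likewise at 0 in the rest of IgG 1, IgG 2 and Anti-CD8 1. Summed microglia markers were similar on both sides (99.2 to 240 against 112 to 186 CPM), and their part in these results was not tested.

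Since Trdc-positive cells mostly lack CD8, the split was repeated within T cells without a CD8 UMI, an alternative to the fit above. There 621 of 6762 genes passed (9.18%), 300 higher (4.44%) and 321 lower (4.75%). The same 6 members rose, where 4.44% of all genes rose. As above, Trdv4, Cd163l1 and Sox13 could enter only through the Trdc-positive sums, so their calls are a description. Trgc1 gave 4.15 (edgeR adjusted p = 8.05e-10), Cd163l1 8.45, Blk 4.60, Sox13 4.49 and Trgc4 2.53 on the log2 scale, and Trdv4 had again 3 UMIs outside Trdc-positive cells. Trgc2 gave 0.85 (0.0862) and Trgv2 0.90 (0.0561), both now on the higher side and not past the threshold. Trac fell by 2.79 and Cd4 by 5.09. Of 12 type 17 genes tested 10 rose, and of 11 cytotoxic genes 10 fell, with medians of 1.54 and -3.09 against -0.01 over all genes. Of 7 NK-type receptors 2 fell, Klre1 and Klrd1, while Klrk1 (-0.52, edgeR adjusted p = 0.238) and Klrc2 (-1.40, 0.1597) did not pass.

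Among genes outside the lists, the 8 highest by log2 fold change in Trdc-positive cells were Trgv6, Gm43434, Mtcl1, Rln3, Shank2, Cdh20, Auts2 and Tns4. Gm43434 averaged 187 CPM against 0.687, Mtcl1, a microtubule-binding protein, 231 against 1.52, and Auts2 210 against 3.35. Rln3, Shank2, Cdh20 and Tns4 rested on 19.7 to 50.3 CPM in Trdc-positive cells. All 8 averaged no more than 3.35 CPM in the rest and passed the count filter only through the Trdc-positive sums. Only a rise was open to them. Of the 8 lowest, 7 had no UMI in the Trdc-positive sums, so only a fall was open to them. Among these 7 were Trat1, an adaptor of the T-cell receptor (54.1 CPM in the rest), Btla, an inhibitory receptor (29.8), and Slamf6, a lymphocyte surface receptor (25.7). The last of the 8, Igkc, the immunoglobulin kappa constant gene, rested on Anti-CD8 1, where 1 barcode held 4027 of its 4133 T-cell UMIs.

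Splitting T cells by Trgc2 instead gave fewer genes past the threshold. A Trgc2-positive cell held a median of 2 UMIs of its gene, against 12 for Trdc. Expressing cells can thus fall on the side without a Trgc2 UMI, and how far this lowered the count was not tested. The Trdc split also left out IgG 1. All 4 libraries entered, with 150, 291, 83 and 54 Trgc2-positive cells, and 106 of 8604 genes passed (1.23%), 22 higher (0.256%) and 84 lower (0.976%). The count was 27 without IgG 1, 29 without IgG 2 and 169 without Anti-CD8 2. Of the 7 other members tested, 2 rose, against the 0.256% of all genes that rose, and 5 did not pass. Trgv2 stood at 218, 231, 172 and 138 CPM in Trgc2-positive cells against 68.9, 30.7, 28.3 and 25.2, a log2 fold change of 2.40 (SE 0.19, edgeR adjusted p = 0.000218). Trgc4 stood at 108, 80.9, 32.9 and 82.2 CPM against 35.3, 28.6, 25.2 and 18.3, with 1.45 (SE 0.21, edgeR adjusted p = 0.0081). The Trgc4 call was lost without IgG 1 (0.064) and without IgG 2 (0.054).

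Trdc (-0.54), Trgc1 (-0.30), Trdv4 (-0.85), Cd163l1 (-0.20) and Blk (-0.33) did not pass in the Trgc2 split, and Sox13 was not tested. Trac (0.11, SE 0.09), Trbc1 (-0.37, SE 0.23) and Trbc2 (0.17, SE 0.06) did not pass either, and 0 of 12 type 17 genes passed. Of 12 cytotoxic genes, 2 rose. Nkg7 stood at 1692, 1789, 1236 and 923 CPM against 1138, 964, 725 and 793, and Ccl5 at 6795, 5905, 5755 and 2794 against 5026, 3686, 3257 and 2488. Their log2 fold changes were 0.62 and 0.53. Cd8b1 rose by 0.53 (edgeR adjusted p = 0.039), Cd8a did not pass (0.44, 0.216) and Cd4 fell by 1.64.

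The highest other genes were Ank3 (2.36), Lag3 (1.68), an inhibitory receptor of activated T cells, and Enpp2 (1.63), the enzyme autotaxin. Pdcd1, the inhibitory receptor PD-1, averaged 386 against 218 CPM (0.79). The lowest were Gm47507 (-2.95), Prkg1 (-2.66) and Myb (-2.58), and Ccr7, the lymph-node homing receptor, fell by 2.00 and Tnfrsf4, a co-stimulatory receptor, by 2.13. Ank3 was largely a gene of IgG 2, at 117 CPM against 17.4 there and at 15.3, 3.66 and 2.42 CPM in the Trgc2-positive cells of the other libraries.

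Within T cells with a CD8 UMI, both members rose again in the Trgc2 split. There 119 of 7453 genes passed (1.6%), 33 higher (0.443%) and 86 lower (1.15%). Trgv2 gave 2.27 (edgeR adjusted p = 9.94e-07) and Trgc4 2.10 (9.93e-06), both among the 0.443% that rose. Cd8a and Cd8b1 (-0.04 and 0.05), Trac (0.01) and Trbc2 (0.03) did not pass. Nkg7 and Ccl5 rose by 0.34 and 0.22, less than over all T cells, and Eomes, a factor of memory and NK-like T cells, fell by 0.75, Fcer1g, a signalling chain of innate lymphocytes, by 0.73, and Il7r by 0.52.

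**Figure D4:**
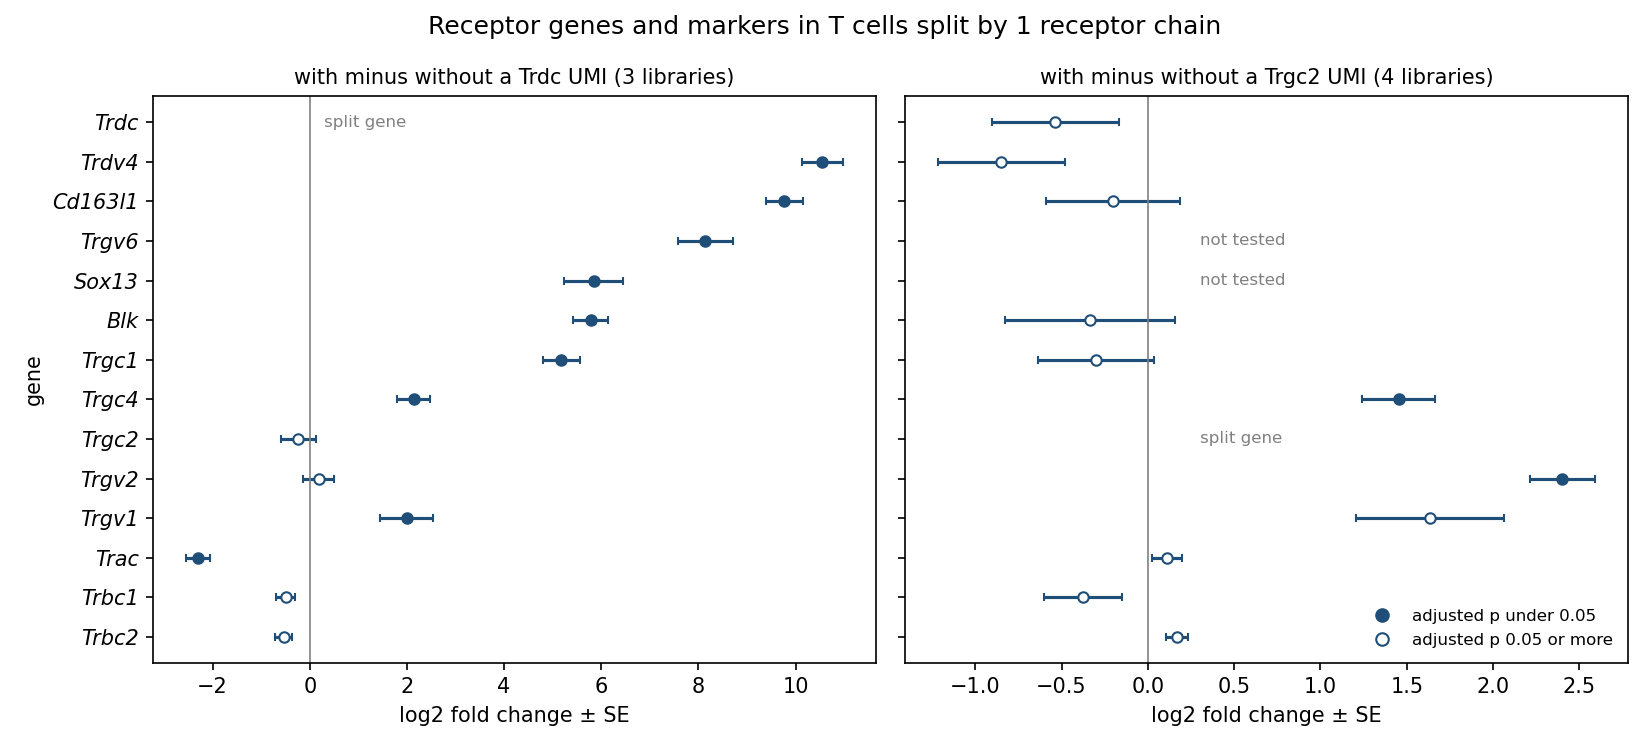
Log2 fold change with its SE (horizontal axis) of the receptor genes and markers between T cells with and without a Trdc UMI (left, 3 libraries) and with and without a Trgc2 UMI (right, 4 libraries); filled points have an edgeR adjusted p under 0.05. Trgc1 stands at 5.17 on the left and -0.30 on the right, Trgv2 at 0.18 and 2.40, and Trgc4 rose in both, by 2.14 and 1.45 (the panels have different scales).

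The remaining gamma and delta features were sparse. Of 20 other features of these loci, 14 had a UMI in T cells, led by Trgv1 (96 UMIs), Trgv6 (78), Trgv4 (24), Trgv3 (19) and Trgv5 (8). The share of UMIs from cells with a CD8 UMI was 62.5% for Trgv1 and 73.7% for Trgv3, and 1.28% for Trgv6, 4.17% for Trgv4 and 0% for Trgv5. The 3 segments of the Trgc1 cassette thus lay on the side of Trgc1, by counts alone. In the Trdc split Trgv1 rose by 2.00 (edgeR adjusted p = 0.0307), a call that was lost within T cells without a CD8 UMI (1.77, 0.0868), and in the Trgc2 split it did not pass (1.63, 0.109).

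Over the 8 sums of library and CD8 status, which share libraries in pairs, the gene most like Trdc among 10026 was Trgc1 (Pearson's r of log2(CPM + 1), 0.991), followed by Rap1b and Jak2 (0.985 each), Il7r and Cltc (0.982 each). The genes most like Trgc2 were Perp (0.987), Plekha2 (0.964), Tnip3, Tubgcp5 (0.945 each) and Gm11713 (0.944), and Trgv2 stood at rank 109 (0.843). In likeness to Trdc, Blk stood at rank 42, Trdv4 at 103, Cd163l1 (Scart1) at 104 and Trgc4 at 4304. These sums hold the values that chose the members, so likeness between members restates that choice. By cluster, 96.2% of Trdc, 94.1% of Trgc1 and 99.8% of Cd163l1 UMIs in T cells lay in 1 cluster of 22, 70, 105 and 65 cells. That cluster held 7.89% of Trgc2, 12.4% of Trgv2 and 26.4% of Trgc4 UMIs. Receptor and CD8 genes were kept out of the clustering. Cd163l1, Blk and Sox13 were not, so they could shape that cluster, and the 99.8% of Cd163l1 is no independent value.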

How the data were processed

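The 4 10x 3′ libraries of dissociated mouse spinal cord were analysed, n = 2 per antibody group. The authors deposited UMI counts per gene and cell barcode, made with Cell Ranger 7.1.0 on GRCm39 per the submitters' processing notes; the sources do not say how multi-mapped reads were counted. The counts were not normalized or changed before deposit as far as the labels say. Depth was 152457679 to 170539226 UMIs per library, which limits precision for genes with few UMIs. Cells needed 300 genes or more and a mitochondrial share of no more than 20%, Scrublet doublets were removed (332, 353, 511 and 562), and 6108, 6290, 7481 and 7816 cells were clustered with scanpy 1.11.5 (3000 variable genes, 30 components, Leiden resolution 1). Clustering used no Cd8a, Cd8b1, receptor, immunoglobulin or sex-linked gene, and clusters were named from marker lists with thresholds set after seeing the data. A T cell had a CD8 UMI if it held at least 1 UMI of Cd8a or Cd8b1. UMIs were summed per library and cell set, and levels are given per 1000000 UMIs (CPM). Sums were tested with edgeR 4.0.16 (quasi-likelihood, TMM, filterByExpr, Benjamini-Hochberg over all genes tested, threshold 0.05, library as a block in the Trdc and Trgc2 splits). A library with under 10 cells on a side was left out, which took IgG 1 from the Trdc split. Shares were also computed after thinning each cell to 2000 UMIs. Each fit was tested on simulated data. The members, the gene lists and the splits were chosen with earlier results of these data known. One gene of the type 17 list is not reported here and was left out of that list's counts. The text names the 9 members, the 5 other receptor features with most UMIs, up to 4 genes per list by level, up to 8 other genes per direction in each split and the 5 genes most like Trdc and Trgc2. Genes named beside these (Il17a, Il23r and Zbtb16 in the Trdc split, the called list members in the split within CD8 UMI-bearing cells, and the called or uncalled members of short lists) were picked after their values were seen. Alternatives tried were DESeq2 1.42.0, no filter, no doublet removal, stricter cell filters, resolution 2, a Cd3 gate, at least 2 UMIs, thinning, each library left out, and a replicate block.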

Additional observations from a re-analysis of the deposited data

Results flagged for a closer look

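The summed level of Trgv2 differed between the antibody groups in opposite directions in the 2 kinds of T cell, which did not hold after thinning. In T cells with a CD8 UMI its mean level under Anti-CD8 minus that under IgG was -94.0 CPM, with both Anti-CD8 libraries (60.6 and 39.6 CPM) below both IgG libraries (147 and 141 CPM). In T cells without a CD8 UMI the difference was 10.5 CPM, with both Anti-CD8 libraries (58.8 and 58.5 CPM) above both IgG libraries (55.8 and 40.3 CPM). Thinned to 2000 UMIs per cell, the levels without a CD8 UMI overlapped, at 54.5 and 59.3 CPM under IgG and 56.7 and 55.9 CPM under Anti-CD8. These thinned levels rested on few UMIs, 6 and 23 under IgG and 27 and 17 under Anti-CD8, and left out shallower cells. The unthinned shares of cells overlapped too (21.1% and 14.0% against 17.2% and 18.3%). The difference between these 2 effects was not tested, and the antibody contrast was among the values that chose the gene.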

How the results depend on the processing

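Counts of genes past the edgeR threshold moved with the processing, and the cause was not tested. For Anti-CD8 against IgG, the 82 genes became 594 with no filter, 44 with no doublet removal, 0 with the Cd3 gate (edgeR; 1058 at an unadjusted p under 0.05) and 112 to 497 with 1 library left out. For the Trdc split, the 777 genes became 482 with DESeq2, 377 with no doublet removal, 353 with the Cd3 gate, 419 after thinning and 367 to 467 with 1 library left out. For the Trgc2 split, the 106 genes became 500 with no filter, 62 with DESeq2, 175 with no doublet removal, 222 with the Cd3 gate, 47 with the antibody as covariate, 61 after thinning, 191 without Trdc-positive cells and 27 to 169 with 1 library left out. In the Trdc split, the calls of Trdv4, Cd163l1, Blk, Sox13, Trgc1, Trgc4 and Trac held in all 16 alternatives, and that of Trgv2 in the Trgc2 split in all 17. For Trdv4, Cd163l1 and Sox13 only a rise was open in the Trdc split, and the Trdc-positive sums carried Trgc1 and Blk past its filter. That the calls of these genes held is therefore a description. The Trgc4 call in the Trgc2 split was also lost after thinning (edgeR adjusted p = 0.057, in a range from 8.11e-13 to 0.0644 over 17 alternatives). Each sign that changed was that of a value that had not passed. With 1 library left out, Trdv4 for Anti-CD8 against IgG ran from -0.15 (without Anti-CD8 1) to 2.31. In the Trdc split Trgc2 ran from -0.64 to 0.51 (without IgG 2) and Trgv2 from -0.14 (without Anti-CD8 2) to 0.77. In the Trgc2 split Trgc1 ran from -0.71 to 0.10, Cd163l1 from -0.76 to 0.29, Blk from -0.78 to 0.12 and Trbc1 from -0.57 to 0.011, each highest without IgG 2, and without IgG 1 Cd163l1 and Blk gave 0.06 each. In the Trdc split Trgc2 gave 0.060 with the Cd3 gate and 0.85 within T cells without a CD8 UMI, and Trgv2 gave -0.24 after thinning and -0.034 with IgG 1 kept. In the Trgc2 split Cd8a gave -0.040 within T cells with a CD8 UMI. The number of members lower with than without a CD8 UMI in every library was 6 and stayed within 5 to 7.

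Deviations from the group means correlated at 0.019 between libraries of the same replicate number. With n = 2 per group, the -0.019 for different numbers is the same value with its sign reversed. Whether the numbers pair the libraries is thus not settled by it. With the replicate block, 158 genes passed for Anti-CD8 against IgG in place of 82. The splits at 2 UMIs, those without the shallow cluster or with IgG 1 kept, and the Trgc2 split within T cells with a CD8 UMI were chosen after seeing the data. Depth limits Sox13 most, with 46 UMIs in T cells.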

Other observations

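Trbc1, a beta constant gene, differed between the 2 IgG libraries more than the gamma genes did. Among T cells with a CD8 UMI, Trbc1 was found in 68.8% of cells in IgG 1, 30.6% in IgG 2, 82.1% in Anti-CD8 1 and 61.8% in Anti-CD8 2, while Trgc2 was found in 52.9% in both IgG libraries. Trbc2, the other beta constant gene, was found in 94.5% and 96.7% of these cells in the IgG libraries. Among T cells without a CD8 UMI, Trbc1 was found in 56.1%, 57.7%, 52.4% and 50.9%. The difference was not tested.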
